A study of Mus musculus with 12 samples.

Results

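The 5 genes described here encode secreted proteins of the extracellular matrix or an enzyme that modifies such proteins: Thbs1, Fn1, Igfbp6, Tinagl1 and Fam20c. They were selected by name, on measured values, after their differences between the groups of these samples were known, so their levels and fold changes are given as a description and carry no p-value. All 5 had a row among the 23621 gene symbols of the count table, and all 5 were among the 10604 symbols with enough reads to be tested. Poly(A)-selected RNA of mouse neutrophils was sequenced in 12 libraries, 4 in each of 3 groups, from female Balb/c mice aged 8 weeks. Naive cells were taken from bone marrow, in mice that carried no tumour. HDN are neutrophils of high density and LDN those of low density, both drawn from the peripheral blood of mice with liver metastases and named for where they settle in a gradient. The labels give no genotype or agent beyond this, and do not say which tumour cells the mice carried, how the cells were purified, or whether a library stands for 1 animal or a pool. Naive therefore differed from the other groups in tissue and in tumour at once, and every blood column but no Naive column carries a shared date-like tag (mar_15), so tissue, tumour and tag cannot be told apart in any comparison against Naive. LDN against HDN lies within 1 tissue and 1 tag.

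The extracellular matrix is built of fibre-forming proteins such as collagens and fibronectin, while matricellular proteins bind the matrix, growth factors and surface receptors without forming fibres. Thrombospondin-1 (Thbs1), which platelets also store and release, binds CD36, CD47 and integrins and can activate latent TGF-beta. Fibronectin (Fn1) is assembled into fibrils through the integrin of the Itga5 and Itgb1 subunits, and monocytes and macrophages are known to make it. Igfbp6 is a secreted binding protein that prefers insulin-like growth factor II. Tinagl1 is a matricellular protein with a cathepsin-like domain that lacks protease activity, and it binds integrins. Fam20c is a kinase of the Golgi that phosphorylates many secreted proteins, osteopontin among them. Neutrophils arriving in a tissue meet such proteins through their integrins, and their own matrix output is less studied than their proteases.

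The sequences just before the transcription start are shown for members that share a pattern across the groups (Igfbp6 and Fam20c, both low in Naive and high in blood) and for Tinagl1, which has the opposite pattern. They are the 250 bases before the start from RefSeq on GRCm38.p6, written 5′ to 3′ on the gene's strand, and entries were matched for 3 of the 5 members. Capitals mark matches on either strand to the core promoter element TATAAA, the NF-Y element CCAAT, the Sp-family element GGGCGG, the AP-1 element TGANTCA and the PU.1 core GAGGAA, none of which overlapped another. The paired C/EBP letters TTGCNNAA and the E-box CACGTG were searched for too and were not found in these windows.
Igfbp6, chr15:102143936-102144185, plus strand: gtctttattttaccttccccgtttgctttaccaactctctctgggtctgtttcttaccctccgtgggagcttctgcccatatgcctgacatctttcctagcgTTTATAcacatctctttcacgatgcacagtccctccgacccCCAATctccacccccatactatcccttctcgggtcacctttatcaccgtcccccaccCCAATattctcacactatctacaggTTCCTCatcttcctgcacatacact
Fam20c, chr5:138754831-138755080, plus strand: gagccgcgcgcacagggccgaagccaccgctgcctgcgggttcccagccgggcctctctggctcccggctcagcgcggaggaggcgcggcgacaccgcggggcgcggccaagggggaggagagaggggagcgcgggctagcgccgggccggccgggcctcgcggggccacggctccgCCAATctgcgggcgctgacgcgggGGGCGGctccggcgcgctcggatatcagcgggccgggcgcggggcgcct
Tinagl1, first of 2 starts, chr4:130175123-130175372, minus strand: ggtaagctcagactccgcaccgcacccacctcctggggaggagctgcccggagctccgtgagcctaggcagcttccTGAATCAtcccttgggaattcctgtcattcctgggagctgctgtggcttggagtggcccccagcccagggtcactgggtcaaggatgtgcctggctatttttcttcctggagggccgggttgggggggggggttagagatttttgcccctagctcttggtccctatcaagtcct

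The Igfbp6 window held 2 NF-Y elements, whose first letters lie 107 and 50 bases before the start, a reverse match to the core promoter element at 148 and a reverse PU.1 core at 25. The Fam20c window held an NF-Y element at 73 and an Sp-family element at 49. The NF-Y element was thus the match that these 2 windows had in common, and 33.8% of all 32851 promoter windows of that length hold it. The Fam20c window was rich in G and C (81.2%, against a median of 52.4% over all windows) and had 41 CpG pairs, a number that 1.09% of all windows reach, whereas the Igfbp6 window had 49.6% and 7 CpG pairs, close to the median of 6. The window of the first Tinagl1 start held an AP-1 element at 174, which 6.75% of windows have. The window of its second start, which lies inside the gene as transcribed from the first and is not printed, held 4 Sp-family elements. Such an element, in any number, is found in 32.7% of windows. The core promoter element occurs in 12.4% of windows, the PU.1 core in 23.3%, the paired C/EBP letters in 9.56% and the E-box in 6.02%. These matches describe letters and were not tested as binding sites.

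Read totals ran from 18113922 to 30044508 per library. Levels are normalised read counts (CPM) of the library size after scaling by TMM (trimmed mean of M-values), which sets libraries equal for the bulk of genes, and 3 reads in a library correspond to 0.0954 to 0.153 CPM. Fold changes are log2 values with standard errors (SE) from edgeR's quasi-likelihood fit to all 12 libraries, and p-values given for other genes measure the spread between these samples only. In RNA from many cells, fewer cells of a type and less RNA per cell cannot be told apart. The 3 comparisons share libraries with each other, so they are given side by side. Neutrophil genes dominated every library: the 13 neutrophil markers summed to 199961 to 232236 CPM in Naive, 79482 to 129750 in HDN and 191787 to 252014 in LDN, with none at 0. HDN 7 stood apart in its scaling factor, 1.28 against 1.01 to 1.05 in the other HDN libraries.

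Thbs1 was the most abundant of the 5 genes in bone marrow and nearly absent from HDN. Its level was 832, 1052, 714 and 808 CPM in Naive 1 to 4. In HDN 3, 4, 5 and 7 it was 0.485, 0.763, 0.761 and 0.534 CPM, from 10 to 24 reads per library. In LDN 3, 4, 5 and 7 it was 5.76, 6.83, 2.35 and 4.98 CPM. The groups did not overlap, every Naive library lay far above every blood library, and within blood every LDN library lay above every HDN library. The mean was 851 ± 143 CPM in Naive, 0.636 ± 0.147 in HDN and 4.98 ± 1.91 in LDN (SD, n = 4). HDN against Naive gave a log2 fold change of -10.35 ± 0.35 (SE), the fifth largest among decreases of all genes tested, and even the nearest libraries of these groups differed 936-fold. LDN against Naive gave -7.41 ± 0.30, and LDN against HDN 2.94 ± 0.31, a 7.83-fold ratio of the means. The counts were not stated to use strand, and Gm29233 overlaps Thbs1 on the opposite strand, so reads of the 2 genes may be mixed.

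Platelets carry Thbs1, and the platelet list was read beside it. Its 12 markers summed to 8.89 to 11.7 CPM in Naive, 7.19 to 9.77 in HDN and 4.89 to 6.60 in LDN, where Thbs1 itself stood at 714 CPM or more in every Naive library. The most abundant of them were Itga2b, at means of 2.59, 6.84 and 2.31 CPM in Naive, HDN and LDN, and Gp1bb, at 2.99, 0.217 and 1.12 CPM. Of the 7 platelet markers tested, 5 were lower and 1 higher in HDN than in Naive, where 29.9% and 30.0% of all genes tested were. In LDN against HDN, 5 were higher and 1 lower, where 26.0% and 20.3% of all genes tested were. The part of platelets in the level of Thbs1 was not tested in any group.

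Tinagl1 had the same order of groups as Thbs1, with a smaller span. It was at 244, 176, 156 and 157 CPM in Naive 1 to 4. In HDN 3, 4, 5 and 7 it was at 5.24, 3.78, 4.76 and 1.30 CPM, and in LDN 3, 4, 5 and 7 at 32.5, 48.7, 40.0 and 42.2 CPM. Naive was highest, LDN lay in between and HDN was lowest, with no overlap between any groups, and HDN 7 was the lowest library of all. The means were 183 ± 41.7, 3.77 ± 1.75 and 40.9 ± 6.67 CPM (SD, n = 4) in Naive, HDN and LDN. The log2 fold change was -5.61 ± 0.35 (SE) for HDN against Naive, -2.17 ± 0.30 for LDN against Naive and 3.44 ± 0.32 for LDN against HDN, the last a 10.8-fold ratio of the means.

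Fn1 set LDN apart from the other groups. It was at 4.97, 3.06, 21.6 and 4.75 CPM in Naive 1 to 4 and at 15.2, 12.5, 10.1 and 12.8 CPM in HDN 3, 4, 5 and 7. In LDN 3, 4, 5 and 7 it reached 209, 202, 107 and 188 CPM. Every LDN library exceeded every other library, by 4.96-fold at the nearest, while Naive and HDN overlapped since Naive 3 lay above all HDN libraries. The means were 8.60 ± 8.72 CPM in Naive, 12.6 ± 2.09 in HDN and 176 ± 47.0 in LDN (SD, n = 4). The log2 fold change was 3.81 ± 0.51 (SE) for LDN against HDN, 4.37 ± 0.53 for LDN against Naive and 0.57 ± 0.48 for HDN against Naive. Without Naive 3 the last 2 became 5.38 ± 0.30 and 1.56 ± 0.26 (SE of that fit). Apol7d overlaps Fn1 on the opposite strand.

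Monocytes are known to express Fn1, and their markers were read beside it. The 15 monocyte and macrophage markers with a row summed to 655 to 880 CPM in Naive, 445 to 700 in HDN and 402 to 485 in LDN, so the summed level was not raised where Fn1 was highest. The most abundant over all libraries were Csf1r, at means of 319, 367 and 122 CPM in Naive, HDN and LDN, and Ly6c2, at 360, 13.8 and 64.0 CPM. Cd68, the most abundant in LDN, had means of 37.9, 109 and 131 CPM, highest in LDN like Fn1. Single markers did not follow the sum: of 14 tested, 8 were higher and 2 lower in LDN than in HDN. Of all genes tested, 26.0% were higher and 20.3% lower in that comparison. F13a1, a listed marker and also a transglutaminase subunit, had means of 1.50, 27.5 and 77.2 CPM, with its Naive maximum, 3.41 CPM, in the same library as that of Fn1. C1qa, C1qb and C1qc were at 0 in all HDN libraries. The part of monocytes in the Fn1 level was not tested.

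Igfbp6 was close to absent in bone marrow and high in blood, most of all in HDN. It was at 0.535, 0.406, 0.254 and 0.303 CPM in Naive 1 to 4, from 5 to 14 reads per library. In HDN 3, 4, 5 and 7 it was at 231, 225, 249 and 107 CPM, and in LDN 3, 4, 5 and 7 at 70.5, 63.1, 52.9 and 67.7 CPM. HDN was highest, LDN in between and Naive lowest, with no overlap, although HDN 7 lay well below the other HDN libraries. The means were 0.375 ± 0.124 CPM in Naive, 203 ± 64.6 in HDN and 63.6 ± 7.73 in LDN (SD, n = 4). The log2 fold change was 9.02 ± 0.34 (SE) for HDN against Naive, 7.35 ± 0.32 for LDN against Naive and -1.67 ± 0.22 for LDN against HDN. It was the only one of the 5 genes whose LDN mean lay below its HDN mean, with a 3.19-fold ratio of HDN to LDN.

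Fam20c was likewise low in bone marrow and high in both blood groups. It was at 2.41, 1.62, 2.09 and 1.87 CPM in Naive 1 to 4 and at 335, 392, 285 and 184 CPM in HDN 3, 4, 5 and 7. In LDN 3, 4, 5 and 7 it was at 451, 518, 446 and 380 CPM. Both blood groups lay above all Naive libraries, but they overlapped each other, since HDN 4 exceeded LDN 7. The means were 2.00 ± 0.333, 299 ± 88.2 and 449 ± 56.4 CPM (SD, n = 4) in Naive, HDN and LDN. The log2 fold change was 7.22 ± 0.26 (SE) for HDN against Naive and 7.81 ± 0.27 for LDN against Naive, against 0.59 ± 0.19 for LDN against HDN. Within each pair of libraries with the same number the LDN value was above the HDN value, by 0.43, 0.40, 0.64 and 1.05 on the log2 scale for numbers 3, 4, 5 and 7.

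**Figure D1:**
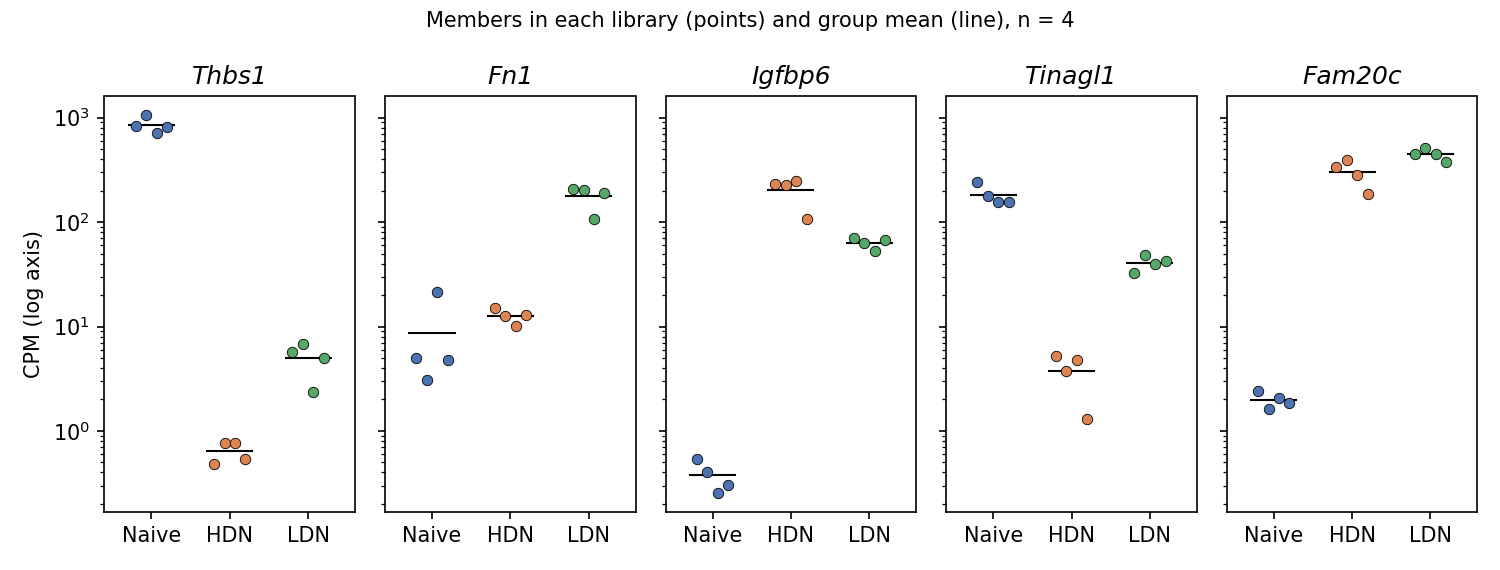
Level of each of the 5 genes in every library, in CPM on a log axis, by group, where points are the 4 libraries of a group and lines are group means. Thbs1 and Tinagl1 are highest in Naive and lowest in HDN, Igfbp6 and Fam20c are lowest in Naive, and Fn1 is high in LDN, with Naive 3 at 21.6 CPM above the HDN points.

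In the table as a whole, the 5 genes were called in nearly every comparison, and so were many other genes. For LDN against HDN, 4 members were called higher, where 26.0% of all genes tested were, and 1 lower, where 20.3% were. For HDN against Naive, 2 were called higher (background 30.0%) and 2 lower (29.9%), with Fn1 not called. For LDN against Naive, 3 were called higher (27.4%) and 2 lower (26.8%). Since the genes were chosen on these comparisons, nothing is read from the counts.

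Per kilobase of exon, which allows levels to be set between genes, the order of the 5 genes changed with the group. In Naive, Thbs1 led with a mean of 140 CPM per kb, Tinagl1 followed with 42.1, and Fn1, Igfbp6 and Fam20c lay between 0.229 and 1.85 with overlapping libraries. In HDN, Igfbp6 led with 182 CPM per kb and Fam20c followed with 45.4, then Fn1 with 1.08 and Tinagl1 with 0.865, which overlapped each other, and Thbs1 was last with 0.105. In LDN, Fam20c with 68.1 and Igfbp6 with 57.2 CPM per kb overlapped at the top, Fn1 with 15.1 and Tinagl1 with 9.38 overlapped below them, and Thbs1 was last with 0.820. Exon lengths are those of GENCODE vM21, from 1.11 kb for Igfbp6 to 11.69 kb for Fn1, and the authors' own annotation is not given in the sources used here.

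The closest profiles to each member were sought among 8195 genes by the root mean square difference of centred log2 CPM over the 12 libraries, in which the group means carry most of the variation. For Tinagl1 they were Itgb3 (0.31), Sema4f (0.41) and Tgm3 (0.41). Itgb3, an integrin subunit, had means of 113, 3.54 and 26.5 CPM in Naive, HDN and LDN. Fam20c was closest to Adck3 (0.34), Gpr15 (0.39) and Nupr1 (0.49), and Igfbp6 to Gab1 (0.51), Clmn (0.57) and Mustn1 (0.61). Fn1 was closest to Col5a1 (0.83), 2500002B13Rik (0.85) and Ctnnd1 (0.87). Thbs1 had no near neighbour among these genes, with Gfi1 (1.45), Hvcn1 (1.79) and Cdk1 (1.83) as its closest. Genes of a lower mean level, which include genes nearly absent from blood, were not compared. Gfi1, a transcription factor of early granulocyte development, had means of 36.4 CPM in Naive, 0.185 in HDN and 1.48 in LDN. Among the members themselves, Igfbp6 and Fam20c were the closest pair (0.98), Thbs1 and Tinagl1 differed by 2.41, and Thbs1 and Igfbp6 were the farthest apart (8.12).

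The relatives of the 5 genes, which were listed whatever their values, did not move as blocks. Of the thrombospondins, Thbs3 had means of 0.482 ± 0.159, 15.5 ± 3.39 and 4.96 ± 1.42 CPM (SD, n = 4) in Naive, HDN and LDN, the reverse of the Thbs1 order. By edgeR's quasi-likelihood test it was higher in HDN than in Naive by 5.00 ± 0.29 on the log2 scale (adjusted p = 8.63e-09) and lower in LDN than in HDN by -1.64 ± 0.24 (adjusted p = 0.000104), with Mtx1 overlapping it on the opposite strand. Thbs4, at a lower level, had the order of Thbs1, with means of 1.78, 0.0296 and 0.677 CPM, a change of -5.71 ± 0.53 in HDN against Naive (edgeR adjusted p = 6.25e-07) and of 4.33 ± 0.58 in LDN against HDN (edgeR adjusted p = 5.61e-05), although HDN held only 3 Thbs4 reads in all, so the size of these fitted changes is uncertain. Thbs2 had 0 reads in all libraries and Comp at most 4 in any.

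Among the binding proteins of insulin-like growth factors, Igfbp4 had the opposite pattern to Igfbp6. It averaged 34.3 ± 4.48 CPM in Naive, 1.21 ± 0.891 in HDN and 2.38 ± 0.724 in LDN (SD, n = 4). It fell by 4.82 on the log2 scale (SE 0.43, edgeR adjusted p = 4.32e-07) in HDN and by 3.84 (SE 0.41, edgeR adjusted p = 3.6e-06) in LDN, each against Naive. LDN against HDN gave 0.97 ± 0.42 (edgeR adjusted p = 0.07), which became 1.08 (adjusted p = 0.0171) with the replicate block and 1.58 (adjusted p = 0.00407) without HDN 5. Igfbp1 and Igfbp2 had 0 reads in all libraries, Igfbp3 had 1 read in all, Igfbp5 was seen in Naive alone, with 5 to 7 reads per library, and Igfbp7 had at most 2 reads in any library.

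Of the Fam20c relatives, Fam20b, which phosphorylates xylose in the linker of glycosaminoglycans, spanned a narrow range, with means of 41.8 ± 4.26, 51.9 ± 1.71 and 60.0 ± 2.46 CPM (SD, n = 4) in Naive, HDN and LDN. It was higher by 0.31 ± 0.10 in HDN (edgeR adjusted p = 0.0174) and by 0.52 ± 0.10 in LDN (edgeR adjusted p = 0.000713) than in Naive on the log2 scale, where Fam20c differed by over 7. LDN against HDN gave 0.21 ± 0.10 for Fam20b (edgeR adjusted p = 0.107). Gm19918 overlaps Fam20b on the opposite strand. Fam20a, a pseudokinase that partners with Fam20c, had at most 3 reads in any library, and Tinag, the closest relative of Tinagl1, had 0 in all.

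**Figure D2:**
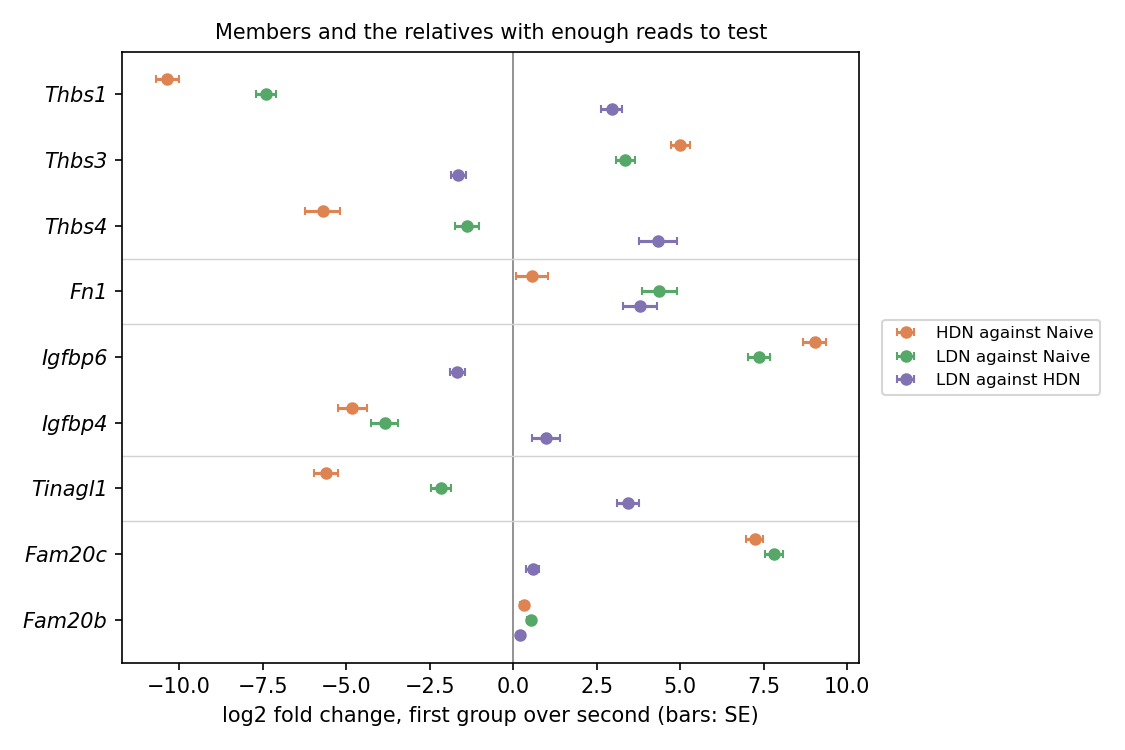
Log2 fold change, with bars of 1 SE, of the 5 genes and of the relatives that were tested, in the 3 comparisons. Thbs3 lies on the opposite side of 0 from Thbs1 and Thbs4 in each comparison, and Igfbp4 from Igfbp6, while the Fam20b points stay between 0.21 and 0.52.

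The pathway partners were taken from 9 lists of matrix, receptor and processing genes that leave out the 5 members. These lists held 224 genes with a row, of which 42 had 0 reads and 84 were tested. By edgeR's quasi-likelihood test at an adjusted p under 0.05 over all genes, 25 of the 84 were higher and 22 lower in LDN than in HDN, 43 higher and 28 lower in HDN than in Naive, and 37 higher and 32 lower in LDN than in Naive. As shares, 29.8%, 51.2% and 44.0% were higher and 26.2%, 33.3% and 38.1% lower, in that order. Over all genes tested the shares were 26.0%, 30.0% and 27.4% higher and 20.3%, 29.9% and 26.8% lower, and the counts of single lists below stand against the same shares. The median log2 fold changes of the 84 genes were 0.05, 0.36 and 0.17, against 0.02, 0.04 and 0.02 over all genes tested. With library sizes that leave out the 20 most abundant genes, the first median of the 84 genes was -0.08. The median of all genes moved by -0.11 under that setting, so the 84 genes moved with the rest. Only genes that passed the filter on low counts enter these counts.

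Structural matrix genes were mostly higher in the blood groups: of 13 tested, 10 rose and 3 fell in HDN against Naive, and 8 rose and 4 fell in LDN against Naive. In LDN against HDN, 5 rose and 2 fell. Col5a1, a fibrillar collagen chain, resembled Fn1, with means of 9.79, 34.1 and 269 CPM in Naive, HDN and LDN, and rose by 2.98 ± 0.32 in LDN against HDN (edgeR adjusted p = 9.3e-06). Ecm1, a secreted matrix glycoprotein, went from 0.806 CPM in Naive to 131 in HDN and 223 in LDN, a log2 change of 7.33 ± 0.74 and of 8.10 ± 0.76. Its libraries overlapped between LDN and HDN, where the change of 0.77 ± 0.53 had an edgeR adjusted p of 0.245, and of 0.00738 with the replicate block. Col7a1, the anchoring fibril collagen, was highest in HDN, with means of 2.19, 4.15 and 1.05 CPM. Lamc1, a laminin chain, rose from 0.665 CPM in Naive to 5.04 in HDN and 4.62 in LDN.

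The 5 tested matricellular genes outside the members divided, with 2 higher and 3 lower in both blood groups against Naive, and 3 higher and 1 lower in LDN than in HDN (1 higher with the replicate block). Tgfbi, a TGF-beta induced protein that binds collagen and integrins, was the most abundant of them, at 622, 1655 and 1789 CPM in Naive, HDN and LDN, and rose by 1.41 ± 0.20 and 1.53 ± 0.20 in the blood groups. Spp1, which encodes the Fam20c substrate osteopontin, fell by 3.90 ± 0.33 on the log2 scale in HDN against Naive (edgeR adjusted p = 2.71e-07), from 8.14 to 0.546 CPM, and stood at 1.77 CPM in LDN.

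Proteoglycan and hyaluronan genes included 6 lower and 3 higher of 10 tested in HDN against Naive, 5 lower and 3 higher in LDN against Naive, and 4 higher and 3 lower in LDN against HDN. Gpc1, a glypican, had the order of Thbs1 and Tinagl1, with means of 142, 10.9 and 45.4 CPM in Naive, HDN and LDN. Gpc2 did so too, at 10.9, 2.04 and 4.09 CPM. Gpc3 went the other way, from 0.0936 CPM in Naive to 52.9 in HDN and 6.88 in LDN, a rise of 9.02 ± 1.20 and 6.08 ± 1.20 with a wide spread (18.0 to 119 CPM in HDN). Agrn, the proteoglycan agrin, fell in both blood groups, from 114 CPM to 45.1 in HDN and 21.5 in LDN.

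Of the receptors that bind fibronectin or thrombospondin-1, 16 had enough reads to be tested, and Cd36 (20 reads in all) did not. Of these, 7 rose and 5 fell in HDN against Naive, 6 rose and 4 fell in LDN against Naive, and 5 rose and 3 fell in LDN against HDN. The last count of genes that fell was 5 without HDN 7, and 5 with the replicate block. Itga5, the fibronectin receptor subunit, rose from 9.65 ± 1.77 CPM in Naive to 178 ± 26.0 in HDN and 96.7 ± 9.97 in LDN (SD, n = 4), by 4.20 ± 0.17 and 3.32 ± 0.16 on the log2 scale (edgeR adjusted p = 3.62e-10 and 3.24e-09). Lrp1, a scavenger receptor for thrombospondin-1, rose from 3.52 to 261 and 270 CPM and did not differ detectably between LDN and HDN (0.05 ± 0.22, edgeR adjusted p = 0.881). Itgb3 fell by 5.00 ± 0.32 in HDN and by 2.09 ± 0.28 in LDN. Cd93, a surface lectin-like receptor, had means of 16.0, 1.15 and 8.92 CPM in Naive, HDN and LDN, and its decrease in LDN against Naive had an edgeR adjusted p of 0.0203, and of 0.0627 without Naive 4.

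Of the 6 tested genes of the insulin-like growth factor system, 3 fell and 2 rose in HDN against Naive, 5 fell and 1 rose in LDN against Naive, and 2 fell and 0 rose in LDN against HDN. The number that rose in HDN was 1 without Naive 1, Naive 2, Naive 3, HDN 3 or HDN 7, each left out in turn, and the 1 that rose in LDN against Naive was lost without Naive 1, 2 or 3 or any LDN library. The 0 in LDN against HDN became 1 or 2 without any HDN library or without LDN 4, 5 or 7. Igf1r, the main growth factor receptor, was at 324, 357 and 255 CPM in Naive, HDN and LDN and fell by 0.49 ± 0.10 on the log2 scale in LDN against HDN (edgeR adjusted p = 0.00181). Irs2, its adaptor, fell by 1.06 ± 0.16 in the same comparison (edgeR adjusted p = 0.000157). Igf2r, which clears insulin-like growth factor II, was at 114, 85.8 and 69.1 CPM, and its decrease in HDN against Naive (edgeR adjusted p = 0.0272) was lost without Naive 3, Naive 4, HDN 5 or HDN 7, with adjusted p from 0.0523 to 0.0916.

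Of the 9 tested secretory kinases and glycosaminoglycan enzymes, 6 fell and 1 rose in LDN against Naive, 2 fell and 2 rose in HDN against Naive (1 rose without Naive 1, 2 or 3 or HDN 3, 5 or 7), and 4 fell and 1 rose in LDN against HDN. Pomk, a kinase of the dystroglycan glycan, fell by 0.84 ± 0.19 in LDN against HDN (edgeR adjusted p = 0.0024), from 4.30 to 2.39 CPM. 1190002N15Rik, the retired symbol of Dipk2a, fell by 1.66 ± 0.32 (edgeR adjusted p = 0.000932). Xylt2, a xylosyltransferase, fell by 1.17 ± 0.39 (edgeR adjusted p = 0.0244), a call that was lost without HDN 4, LDN 3 or LDN 5, with adjusted p up to 0.0805.

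Crosslinking and processing enzymes were divided, with 8 of 14 tested up and 4 down in HDN against Naive and 7 up and 3 down in LDN against Naive. In LDN against HDN 5 rose and 4 fell, but 2 rose without LDN 5 and 3 without LDN 3, 4 or 7, and 2 fell without HDN 4. Transglutaminases, a family of protein-crosslinking enzymes, split: Tgm3 fell by 5.62 ± 0.40 in HDN against Naive, from 37.4 to 0.753 CPM, while Tgm1 rose by 4.74 ± 0.33 (edgeR adjusted p = 3.72e-08), from 6.22 to 166 CPM. F13a1 differed by 1.49 ± 0.79 between LDN and HDN (edgeR adjusted p = 0.139), which became 2.15 (adjusted p = 0.00792) with the replicate block and 2.75 (adjusted p = 0.00821) without HDN 7. P4ha1, a collagen prolyl hydroxylase subunit, rose by 3.12 ± 0.19 in HDN and by 2.03 ± 0.18 in LDN. On the list of Tinagl1 relatives, all 8 tested genes were cathepsins, of which 7 rose and 1 fell in each blood group against Naive. Ctsd, an aspartic protease without the fold that Tinagl1 shares with the cysteine cathepsins, was among those that rose. Ctss rose by 4.58 ± 0.33 and 3.36 ± 0.31 and Ctsc by 3.24 ± 0.24 and 4.28 ± 0.25, and Ctsh was the 1 that fell. In LDN against HDN 2 rose and 3 fell, the former 1 without HDN 3, 4 or 7 or LDN 3, 4 or 5.

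Of the 4 tested genes of latent TGF-beta, 3 rose and 1 fell in HDN against Naive, and 2 rose and 1 fell in LDN against Naive. In LDN against HDN 1 fell, Itgav, and 3 did so without HDN 7 or with the replicate block, and 2 without LDN 4. Tgfb1, the ligand, fell from 139 to 86.4 CPM in HDN and 86.0 in LDN, by 0.69 on the log2 scale in each (SE 0.12). Nrros, which holds the latent ligand on myeloid cells, rose from 180 to 379 and 290 CPM, and Furin, which cleaves the precursor, from 317 to 688 and 513 CPM.

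**Figure D3:**
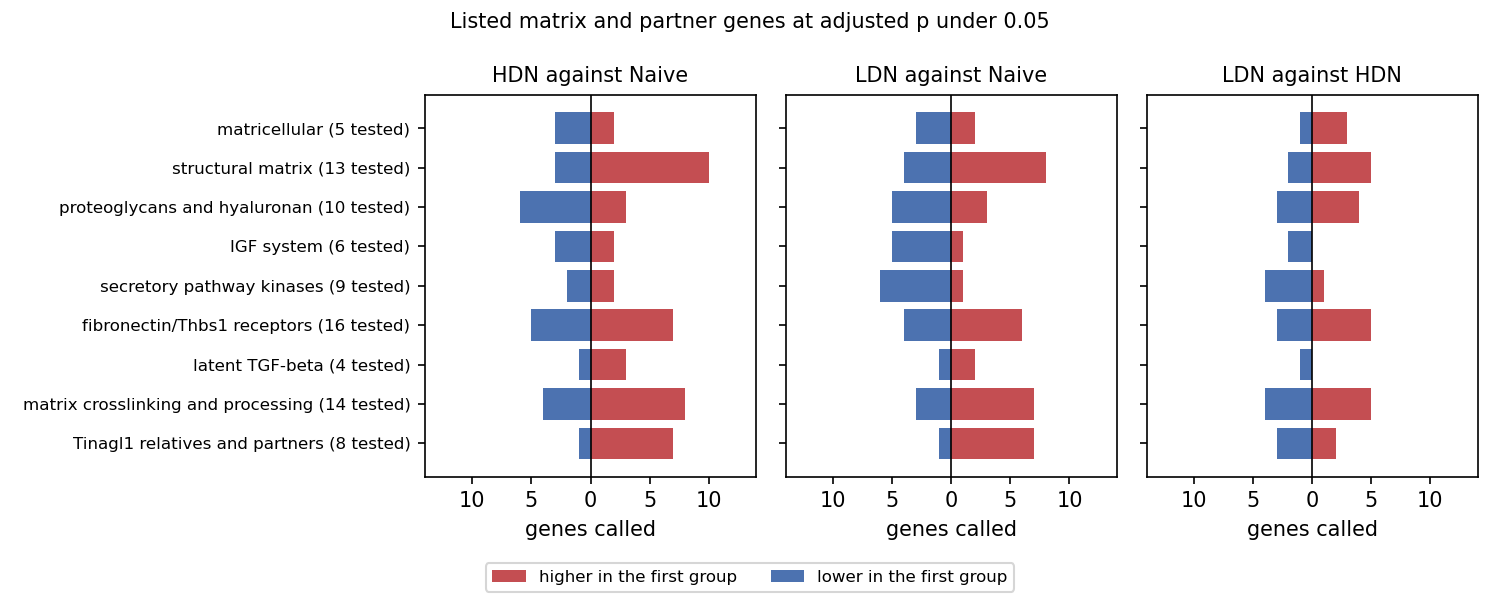
Number of tested genes called higher (to the right of 0) or lower (to the left) at an edgeR adjusted p under 0.05 in each list and comparison. Structural genes and the cathepsin-rich list of Tinagl1 relatives lie mostly to the right against Naive (10 and 7 genes in HDN), and proteoglycans mostly to the left (6 genes in HDN).

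Matrix genes in blood cells can also come from other cells, so marker lists of such cells were read beside the members. Of 9 fibroblast and stromal markers, Col1a1, Col1a2, Col3a1, Dcn, Lum and Cxcl12 were at 0 in all 8 blood libraries, and the list summed to 0.808 to 1.66 CPM in Naive, 1.33 to 2.02 in HDN and 0.0835 to 0.326 in LDN. The hepatocyte list, with Alb at 0 in all 12 libraries, stayed at or below 0.254 CPM. The endothelial list summed to 8.26 to 11.0, 6.49 to 14.5 and 18.0 to 25.8 CPM in Naive, HDN and LDN, most of it Pecam1, with Cldn5, Emcn and Tek at 0 in all libraries. The epithelial list summed to 3.20 to 4.44 CPM in Naive, 12.9 to 70.0 in HDN and 11.5 to 71.7 in LDN, with Krt5, Krt14 and Krt19 at 0 in all libraries. Cdh1 was its most abundant marker in blood on average (means of 33.9 CPM in HDN and 36.2 in LDN), followed in HDN by Epcam (4.11) and Krt7 (3.29). The sums of the lymphoid lists had the order of Thbs1 and Tinagl1, and the erythroid sum was likewise highest in Naive: T and NK cell markers, mostly Cd3d, summed to 197 to 270, 3.63 to 20.02 and 34.6 to 50.6 CPM, B cell markers to 15.3 to 39.8, 0.305 to 1.98 and 1.21 to 5.62 CPM, and erythroid markers to 0.65 to 6.36, 0.228 to 0.458 and 0.0418 to 0.138 CPM. The T and NK cell sum followed Cd3d, at means of 214, 8.11 and 34.7 CPM in Naive, HDN and LDN. Single markers of that list did not all do so, and Cd3e was lowest in Naive (0.0876, 0.535 and 0.718 CPM). Of 6 tested on that list, 1 was higher and 3 lower in HDN than in Naive. In LDN against Naive, 2 were higher and 3 lower. Of the 13 neutrophil markers, 2 were higher and 8 lower in HDN than in Naive, 4 higher and 4 lower in LDN than in Naive, and 9 higher and 1 lower in LDN than in HDN. The granule genes Ngp and Ltf had the order of Thbs1, with means of 31861, 1766 and 20609 CPM and of 21031, 696 and 12971 CPM in Naive, HDN and LDN, while Csf3r (3632, 8660 and 3962 CPM) and Cxcr2 (1064, 2952 and 2374 CPM) were highest in HDN. The part of these cell types in the members' levels was not tested.

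**Figure D4:**
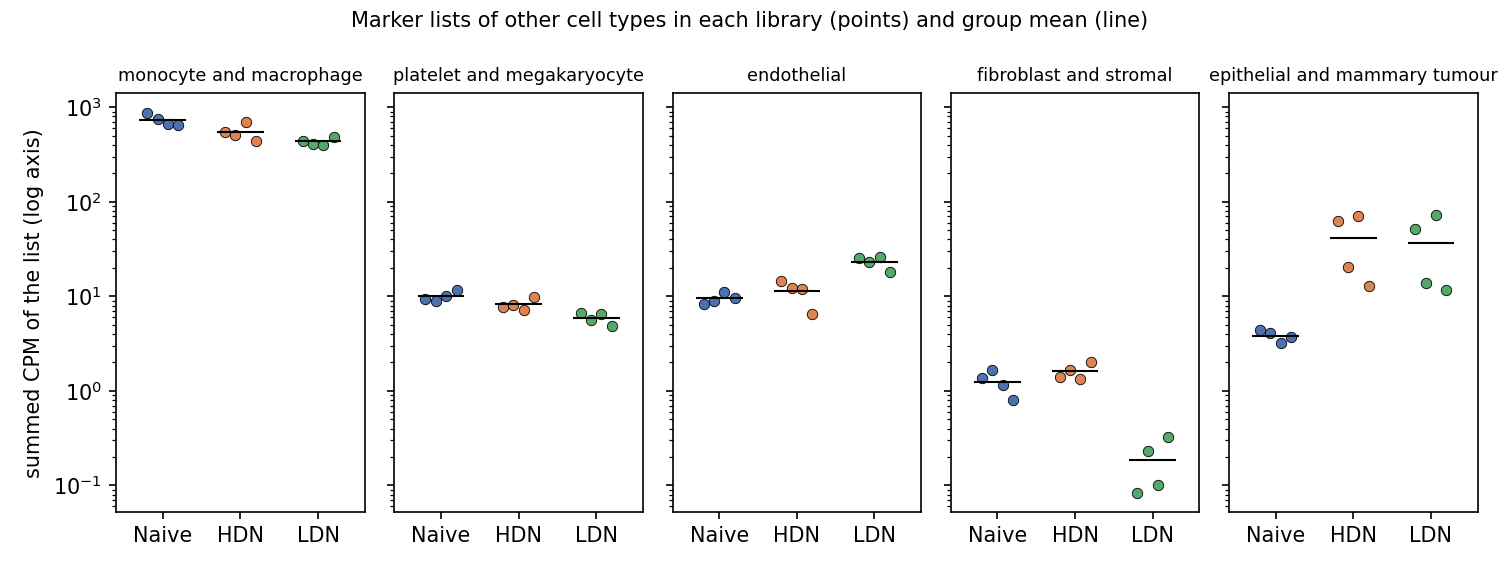
Summed CPM, on a log axis, of 5 marker lists in each library, by group, with lines at the group means. The monocyte and platelet means are lowest in LDN (libraries at 402 to 485 and 4.89 to 6.60 CPM), where Fn1 is highest, the endothelial sum is highest there, and the stromal sum is at most 2.02 CPM in any library.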

How the data were processed

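RNA of 12 neutrophil libraries was sequenced after poly(A) selection with a stranded kit, per the labels' protocols. Per the submitters' processing notes the tools were CASAVA 1.8.2, Trimmomatic, STAR and DESeq2 1.16.1. For the genome build, annotation and strand setting, nothing is given in the sources used here. The authors deposited whole-number counts of 23621 symbols, not normalized. Their 3 comparison tables hold, per the file headers, a mean normalized signal, a log2 fold change with its SE, a test statistic (a score) and p-values. Every column was matched by name, leaving 0 unmatched.

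The counts were fitted with edgeR 4.0.16 (limma 3.58.1, R 4.3.3): TMM scaling, its filter on low counts by group, which kept 10604 genes with 99.967% of counts, and a robust quasi-likelihood model with group as the only term, Benjamini-Hochberg adjusted over all genes tested, threshold 0.05. The code was tested on simulated data. For the members, the authors' deposited table gave log2 fold changes from -10.17 (Thbs1, HDN against Naive) to 8.80 (Igfbp6, HDN against Naive). log2 CPM for profiles used a prior count of 2. Alternatives were another scaling (RLE), library sizes without the 20 most abundant genes, no filter on low counts, DESeq2 1.42.0, limma-voom, each library left out, only the 2 groups compared, and a replicate block for HDN and LDN.

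The labels give HDN and LDN the numbers 3, 4, 5 and 7. Deviations from group means correlated at 0.32 to 0.76 between same-numbered libraries and at -0.61 to 0.41 between others. These ranges overlap, and the labels do not say that the numbers mark pairs. The main fit therefore has no term for the number, and the replicate block, which treats the numbers as pairs, is an alternative. Between replicates the chi-square per gene ran from 3.28 (Naive 3 and Naive 4) to 184 (HDN 4 and HDN 7), so no library was a copy of another. The next lowest value was 15 (Naive 2 and Naive 3). Whether close libraries share a source cannot be told from these values. Reads are not independent molecules, and the read floor covers counting error only.

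The members and lists were chosen with earlier results of these data known. Genes named were the members, their relatives, up to 4 called genes per list by largest change, from a mean log2 CPM of 1 upwards, the 3 closest profiles per member, and markers at 0 or the most abundant 2 of a list. That mean level left out some list genes with larger log2 changes, such as Has2 (-10.59 in HDN against Naive) and Svep1 (8.46 in LDN against Naive). C1qa, C1qb, C1qc, Cd36, Cd3e, Cd68, Csf3r, Ctsd, Cxcr2, Epcam, Has2, Ltf, Ngp, Svep1 and the marker use of F13a1 were chosen after their values were seen. Of 230 listed symbols 6 had no row, and 8 were found under a retired symbol. Promoter sequences and symbols are from RefSeq (GRCm38.p6), and no gene coordinates other than those are given.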

Additional observations from a re-analysis of the deposited data

Results flagged for a closer look

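In 45 sets of 4 values (members and marker lists, by group) a single library was looked for that lay so far from the other 3 that its gap to the nearest passed Dixon's 95% critical value, which chance alone gives in about 1 set in 20. It was met 4 times. Fn1 in Naive 3 stood at 21.6 CPM, against 3.06 to 4.97 CPM in the other Naive libraries, and it carried the overlap of Naive with HDN. The monocyte and macrophage sum of Naive 3, 665 CPM, lay within the Naive range of 655 to 880 CPM. Igfbp6 in HDN 7 stood at 107 CPM, against 225 to 249 CPM in the other HDN libraries, and HDN 7 was also the lowest HDN library for Tinagl1 (1.30 CPM) and Fam20c (184 CPM) but not for Thbs1 or Fn1. The neutrophil markers of Naive 1 summed to 232236 CPM, the highest of the Naive group. The hepatocyte markers of LDN 3 summed to 0.0835 CPM where the other LDN libraries had 0.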

How the results depend on the processing

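The 15 fold changes of the members were recomputed 215 times under the alternatives, and 213 stayed within 1 SD of the reported value with 0 changes of sign. The exceptions were the comparisons of Fn1 with Naive when Naive 3 was left out: over all single libraries left out, HDN against Naive ranged from 0.27 to 1.56 and LDN against Naive from 4.08 to 5.38, the upper ends being those without Naive 3. With the replicate block, LDN against HDN gave 2.84 for Thbs1, 3.72 for Fn1, -1.67 for Igfbp6, 3.48 for Tinagl1 and 0.58 for Fam20c. Leaving out the 20 most abundant genes from the library sizes moved the median log2 fold change of all genes in LDN against HDN by -0.11, which turned no member. Of 86 recomputed counts over the 84 listed genes, 84 stayed within 1.5 times. The count higher in LDN than in HDN fell from 25 to 16 when only the 2 groups compared were fitted, with fewer samples, and the count lower in HDN than in Naive rose from 28 to 47 with no filter on low counts, which tests more genes. Single lists were less stable, with 691 of 774 counts within 1.5 times. The calls of Tgm1 and Ctsh in LDN against HDN (adjusted p = 0.0428 and 0.0482) were lost under most alternatives, with adjusted p up to 0.165 and 0.18. For Fam69a in HDN against Naive the adjusted p of 0.0339 reached 0.0948. Depth limits Thbs1 in HDN and Igfbp6 in Naive, with 68 and 36 reads in all, and relatives below 3 reads in a library.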
